A study of Mus musculus with 10 samples.

Results

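Embryonic stem (ES) cells of the mouse line E14Tg2a.4 with a reporter under a Zscan4c promoter fragment were sorted into Zscan4-positive and Zscan4-negative fractions (positive and negative cells below), and the RNA of both was sequenced. The 4 libraries of this sort, of 10 in the series, were chosen by their labels, 2 per fraction. The reporter was a piggyBac transgene, which integrates outside the Zscan4c locus, so the sort followed the activity of a promoter fragment in 1 reporter line and not the Zscan4c gene itself. The remaining 6 libraries came from another E14Tg2a.4 line with knock-in reporters at both Esrrb and Tbx3, sorted into 3 fractions. Double-negative cells were negative for both reporters, single-positive cells were positive for Esrrb and negative for Tbx3, and double-positive cells were positive for both. They serve here only to place the levels of both Zscan4 fractions. No treatment or gene deletion is given for any group, and replicate libraries came from different days.

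A small and changing minority of cells in an ES culture enters a state with transcripts otherwise found in the 2-cell embryo, the stage at which the mouse embryo first transcribes its own genome strongly. Zscan4 genes, a tandem family of zinc finger and SCAN domain proteins tied to telomere lengthening and genome stability, mark that state, and the homeobox factor Dux can switch it on together with MERVL retroviral elements. Cells leave it again and return to the ordinary pluripotent state.

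The deposited table gives 1 level per gene row and fraction, in FPKM (fragments per kilobase of transcript, scaled to the mapped fragments), with the 2 libraries of a fraction already merged. Differences are therefore given without SD, test or p-value, and no replicate check was possible. Of 32361 rows, 12400 reached 1 FPKM in either Zscan4 fraction and were compared as the difference of log2(FPKM + 1), Zscan4-positive minus Zscan4-negative, a scale that understates differences of low genes. Rows below 0.5 FPKM in Zscan4-negative cells are called silent there, and rows at 5 FPKM or more in each fraction are called expressed in both. Totals were 551767 FPKM in Zscan4-positive cells, against 531091 FPKM in Zscan4-negative cells, and read depth is unknown.

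The sort matched its label by its defining genes. Zscan4c was at 120 FPKM in Zscan4-positive cells, against 0.255 FPKM in Zscan4-negative cells, a difference of 6.59. Zscan4d was at 123 FPKM in positive and 0.0588 FPKM in negative cells, Tmem92, a transmembrane protein gene, at 47.5 FPKM in positive and 0.0690 FPKM in negative cells, and Dux at 7.99 FPKM in positive and 0.0338 FPKM in negative cells. All 4 were below 1 FPKM in the double-negative, single-positive and double-positive fractions as well, where Dux was at 0.0493, 0.0317 and 0.127 FPKM. In a merged bulk value, a larger share of cells with a transcript and more of it per cell cannot be told apart.

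Promoters are shown for Zscan4c, whose promoter fragment drove the reporter, for its neighbour Zscan4d, for the deubiquitinase gene Usp17lb as a silent gene of another family, and for Nelfa as a gene expressed in both fractions. Each is the 250 bases before the RefSeq start on GRCm38.p6, 5′ to 3′ on the gene's strand, and capitals mark the TATAAA motif. Zscan4c lies at chr7:11005495-11005744 (plus strand), Zscan4d at chr7:11166149-11166398 (minus strand), Usp17lb at chr7:104842584-104842833 (minus strand) and Nelfa at chr5:33936272-33936521 (minus strand).
Zscan4c: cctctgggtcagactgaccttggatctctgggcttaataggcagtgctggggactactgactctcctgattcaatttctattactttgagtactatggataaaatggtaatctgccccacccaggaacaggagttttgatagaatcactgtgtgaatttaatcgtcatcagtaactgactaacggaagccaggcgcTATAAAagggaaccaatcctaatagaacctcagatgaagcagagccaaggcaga
Zscan4d: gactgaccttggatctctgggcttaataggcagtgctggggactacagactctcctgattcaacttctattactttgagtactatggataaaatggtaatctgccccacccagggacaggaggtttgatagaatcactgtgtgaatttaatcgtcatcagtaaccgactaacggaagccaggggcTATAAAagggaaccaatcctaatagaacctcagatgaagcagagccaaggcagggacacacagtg
Usp17lb: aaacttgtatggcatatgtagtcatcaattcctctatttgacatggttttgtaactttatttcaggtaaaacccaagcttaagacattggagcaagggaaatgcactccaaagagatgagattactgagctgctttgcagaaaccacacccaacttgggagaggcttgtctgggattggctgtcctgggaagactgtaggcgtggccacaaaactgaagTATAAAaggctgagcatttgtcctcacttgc
Nelfa: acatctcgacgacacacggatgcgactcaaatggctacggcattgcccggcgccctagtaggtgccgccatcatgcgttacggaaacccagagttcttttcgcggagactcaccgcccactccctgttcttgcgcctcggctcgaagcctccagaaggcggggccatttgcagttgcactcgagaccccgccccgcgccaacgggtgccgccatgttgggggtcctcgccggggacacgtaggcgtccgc
Shifted by 11 bases, the Zscan4c and Zscan4d windows shared 239 bases, of which 232 were identical and 7 differed (97.1% identity). TATAAA began 54 bases before the start in Zscan4c, 65 bases before it in Zscan4d and 31 bases before it in Usp17lb, and was not found in the Nelfa window. GC content was 44.8% in Zscan4c, 46.4% in Zscan4d and 43.6% in Usp17lb, with 3, 3 and 1 CG dinucleotides, against 64.8% and 28 in Nelfa. On either strand, TATAAA was found in 3504 of 27025 promoters of the table (12.97%). Which stretch of the Zscan4c promoter the reporter carried is not given in the sources used here. A comparison of promoter composition over the whole silent class is void, because 118 of its 153 genes (77.1%) had a promoter in the table, under the 80% asked for. The windows shown were picked as examples, and those of Zscan4c and Zscan4d are near-identical. Nothing about the promoters of the silent class is read from them.

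**Figure D1:**
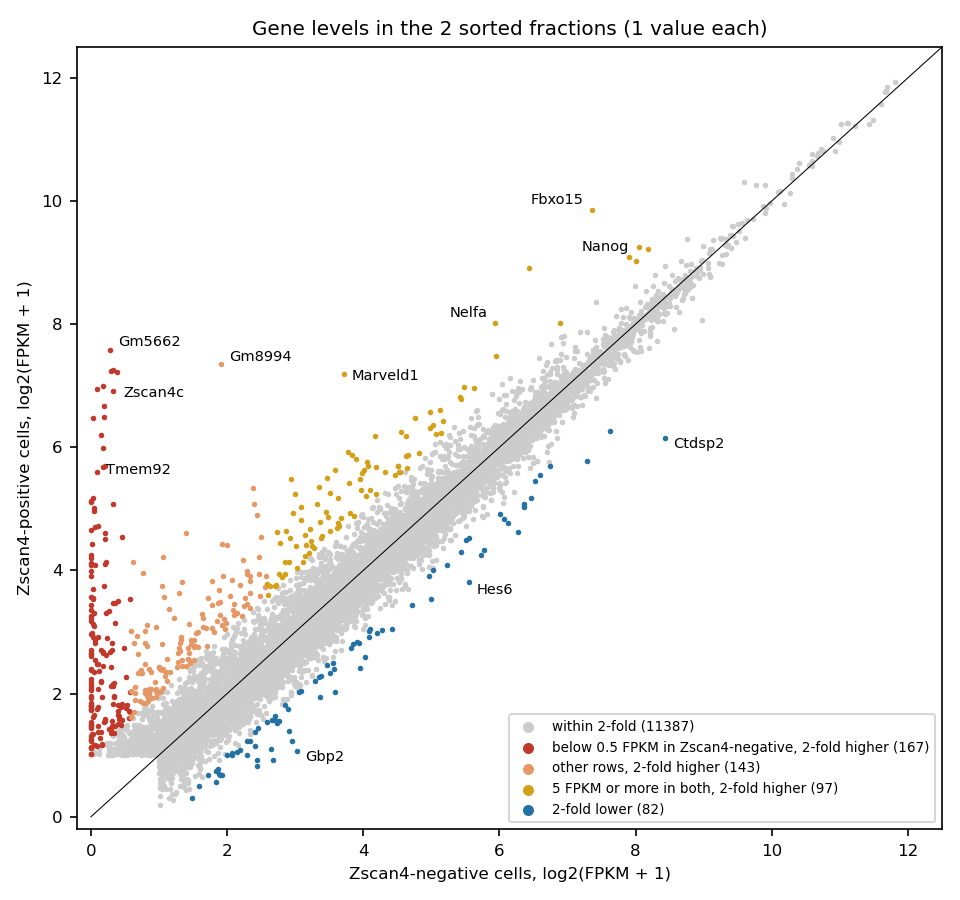
Level of each coding, long noncoding or transcribed-pseudogene row in Zscan4-positive (vertical) and Zscan4-negative cells (horizontal), both as log2(FPKM + 1), 1 point per row, with the line of equal levels. A column of red points at the left edge holds the 167 rows silent in Zscan4-negative cells and past 2-fold, the 97 yellow points are expressed in both and past 2-fold higher, and most other rows follow the line.

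Outside a limited set of rows, the fractions had closely similar levels. The median difference over the 12400 rows was -0.02 and the quartiles were -0.20 and 0.19. Of all compared rows, 470 (3.79%) were higher in Zscan4-positive cells by 2-fold or more, and 119 (0.96%) were lower by 2-fold or more. Of the 8412 rows expressed in both, 93.3% lay within 1.5-fold. The correlation across rows was r = 0.951, a description over genes that share 2 columns of values. The higher rows divided into genes silent in Zscan4-negative cells and genes expressed in both, which are described in turn.

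The silent class held 306 rows, of which 204 (66.7%) were at least 2-fold higher and none was at least 2-fold lower in Zscan4-positive cells. A row below 0.5 FPKM in one fraction enters the comparison only if it reaches 1 FPKM in the other, so that share follows from the class and nothing is read from it. Of the 204, 156 were protein-coding, 5 long noncoding and 6 transcribed pseudogenes by RefSeq, and 37 were short RNAs, other kinds or unmatched symbols. The 167 rows of the first 3 kinds had a median level of 4.18 FPKM in Zscan4-positive cells, with 46 at 10 FPKM or more and 8 at 100 FPKM or more, against a median of 0.0723 FPKM in Zscan4-negative cells, where 51 were listed at 0. Their levels summed to 2600 FPKM in Zscan4-positive cells, against 20.7 FPKM in Zscan4-negative cells, or 0.471% and 0.00389% of the column totals. These rows thus held under 1% of the summed level in both fractions.

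At the lower edge of these levels the class does not end sharply. Apoa2, an apolipoprotein gene, was just inside it at 2.26 FPKM in Zscan4-positive cells, against 0.490 FPKM in Zscan4-negative cells. Cebpa, a transcription factor gene, was just outside at 7.10 FPKM in positive and 0.502 FPKM in negative cells. Efna3, an ephrin gene, was at 15.4 FPKM in positive and 7.15 FPKM in negative cells. Among coding and long noncoding rows expressed in both, it was the last at or above 2-fold on the log2(FPKM + 1) scale. D230025D16Rik, at 65.4 FPKM in positive and 32.2 FPKM in negative cells, was the first below. Its difference was 0.999, under the limit of 1 only through the added 1 FPKM.

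The 6 rows of the Zscan4 family were all silent in Zscan4-negative cells and at least 2-fold higher in Zscan4-positive cells, with differences between 4.66 and 6.93. Zscan4a, a transcribed pseudogene by RefSeq, was at 151 FPKM in Zscan4-positive cells, against 0.246 FPKM in Zscan4-negative cells. The 2 rows of Zscan4f were at 62.2 and 31.2 FPKM in Zscan4-positive cells, against 0.134 and 0.0296 FPKM in Zscan4-negative cells, and Zscan4b was at 24.3 FPKM in positive cells against a value listed at 0 in negative cells. The family is near-identical in sequence, so the division of reads among its copies is uncertain, and the sum over the 6 rows, 512 FPKM in Zscan4-positive cells, against 0.723 FPKM in Zscan4-negative cells, depends less on it.

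Of 17 rows of other 2-cell transcription factors, 10 were compared and 9 were past 2-fold. All 9 reached 1 FPKM in Zscan4-positive cells alone, and the 7 rows not compared had differences of at most 0.52, so the share past 2-fold follows from the filter and is not read as a result. Tdpoz4, a gene with a BTB/POZ domain, was at 33.7 FPKM in Zscan4-positive cells and listed at 0 in Zscan4-negative cells. Zfp352, a zinc finger gene, was at 14.1 FPKM in positive cells against 0 in negative cells, and Ubtfl1, a relative of the ribosomal RNA transcription factor UBTF, at 10.7 FPKM in positive cells against 0.0229 FPKM in negative cells. Lmx1a, a LIM homeobox gene, was at 6.61 FPKM in positive and 0.0723 FPKM in negative cells, and the oocyte-type homeobox gene Obox6 at 2.46 FPKM in positive and 0.0725 FPKM in negative cells. The tenth was Nr5a2, a nuclear receptor of both early embryo and ES cells, at 26.9 FPKM in Zscan4-positive cells, against 21.3 FPKM in Zscan4-negative cells. In Zscan4-positive cells the levels of all these factors were far below the Zscan4 sum.

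The multicopy families of 2-cell transcripts gave the highest silent genes. They were counted in a wider list of 2-cell transcripts, which also holds Arg2, Abcb5, Gm8994, Tmem92 and Sntb1. Of its 49 rows, 35 were compared and 34 of these were past 2-fold. Again the share follows from the filter, since 32 of the 35 reached 1 FPKM in positive cells alone, and of the 14 rows not compared, 7 were listed at 0 in both fractions. The compared row that was not past 2-fold was Sntb1, a syntrophin gene, at 2.68 FPKM in Zscan4-positive cells, against 1.601 FPKM in Zscan4-negative cells. Gm5662 led the class at 191 FPKM in Zscan4-positive cells, against 0.216 FPKM in Zscan4-negative cells, a difference of 7.31. Gm20767 was at 149 FPKM in positive and 0.310 FPKM in negative cells, and Gm8300 at 126 FPKM in positive and 0.133 FPKM in negative cells. Gm12794, named Pramel19 in RefSeq and a member of the PRAME family of leucine-rich repeat proteins, was at 88.3 FPKM in positive and 0.0255 FPKM in negative cells, and Gm13119, or Pramel31, was at 33.97 FPKM in positive cells against 0 in negative cells. The Usp17-like genes code for deubiquitinases. Usp17lb was at 50.6 FPKM in Zscan4-positive cells, against 0.154 FPKM in Zscan4-negative cells, Usp17le at 50.045 FPKM in positive and 0.129 FPKM in negative cells, Usp17lc at 30.1 FPKM in positive and 0.0328 FPKM in negative cells, Usp17la at 25.02 FPKM in positive and 0.0437 FPKM in negative cells, and Usp17ld at 10.6 FPKM in positive and 0.0169 FPKM in negative cells. All 5 therefore had the same order of fractions, within a 5-fold span of levels in Zscan4-positive cells.

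Genes other than these Gm, PRAME-family and Usp17-like genes were in the silent class as well. Arg2, Abcb5 and Gm8994, described here, were already counted in the list above. Arg2, the mitochondrial arginase, was at 35.3 FPKM in Zscan4-positive cells, against 0.0236 FPKM in Zscan4-negative cells, in a row that overlaps Vti1b. Abcb5, a membrane transporter gene, was at 25.4 FPKM in positive and 0.0719 FPKM in negative cells. Defb25, a beta-defensin gene, was at 32.7 FPKM in positive and 0.249 FPKM in negative cells. Gm8994, named Eif4a3l1 in RefSeq and a relative of the exon junction helicase Eif4a3, had one of the highest levels at 163 FPKM in Zscan4-positive cells but lay outside the class, since Zscan4-negative cells held 2.76 FPKM. Rows between the silent class and those expressed in both numbered 3682, of which 158 (4.29%) were past 2-fold higher and 76 (2.06%) past 2-fold lower.

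**Figure D2:**
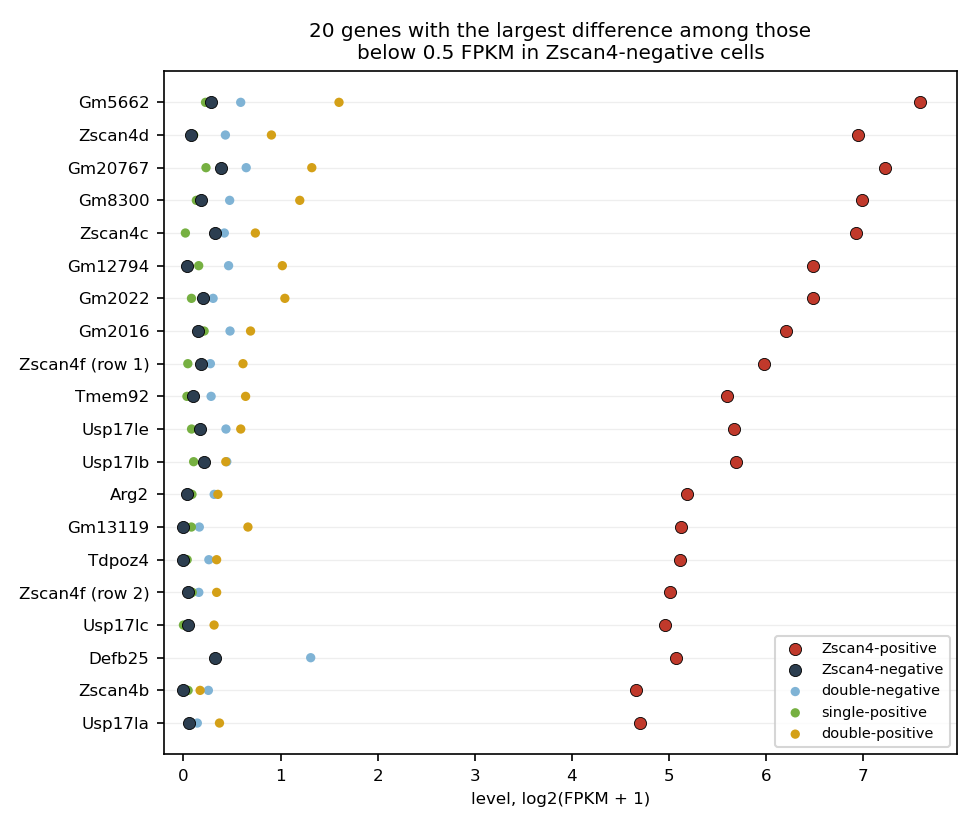
Levels as log2(FPKM + 1) of 20 genes below 0.5 FPKM in Zscan4-negative cells, those with the largest differences once pseudogenes and short RNAs are left out, 1 point per fraction. All 20 Zscan4-positive values lie right of every other fraction, and among the other 4 the double-positive value is the highest for most genes.

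The Esrrb/Tbx3 line was not sorted on a Zscan4 reporter. Tbx3, a gene of that sort, was itself at 35.3 FPKM in positive and 11.4 FPKM in negative cells. Whether that sort is independent of the silent-class genes was not tested. The 167 silent-class rows had median levels of 0.162, 0.0817 and 0.187 FPKM in double-negative, single-positive and double-positive cells, and 14, 11 and 10 of them reached 1 FPKM there. In 162 of the 167 the Zscan4-positive value was the highest of the 5 fractions, and in 153 it was at least 2-fold above each other fraction. The median in Zscan4-negative cells, 0.0723 FPKM, was below those of all 3 fractions, and 121, 88 and 134 rows were above their Zscan4-negative value in double-negative, single-positive and double-positive cells. Rows were chosen for a low Zscan4-negative and a 2-fold higher Zscan4-positive value. That fixes part of these counts and orders, so they are a description only. Gm5662 was at 0.505, 0.171 and 2.04 FPKM in the 3 fractions, and Zscan4c at 0.339, 0.0140 and 0.671 FPKM. For both genes the double-positive level was the highest of the 3.

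A few silent-class rows were above 1 FPKM in fractions of the Esrrb/Tbx3 line. BC147527 was at 23.5 FPKM in Zscan4-positive cells, against 0.156 FPKM in Zscan4-negative cells, but at 2.73, 2.01 and 0.210 FPKM in double-negative, single-positive and double-positive cells. The same fractions held Col1a1, a fibroblast collagen, at 477, 348 and 6.32 FPKM, against 7.003 FPKM in Zscan4-positive cells, against 5.61 FPKM in Zscan4-negative cells. The part of fibroblast RNA in the levels of BC147527 was not tested. Both Zscan4 fractions held Col1a1 at levels within 1.5-fold of each other.

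Some silent-class genes lay near other rows that were at least 2-fold higher, counted here whatever their class. A further row at least 2-fold higher and not overlapping was found within 100 kb for 41 of the 167 silent-class rows (24.6%), for 10 of 97 higher rows expressed in both (10.3%), and for 890 of 11876 rows in all (7.49%). The longest run of silent-class rows was on chr12:87514316-88321762 (mm10), where all 9 compared rows, Gm8300 to Gm5039, were past 2-fold. They summed to 669 FPKM in Zscan4-positive cells, against 0.993 FPKM in Zscan4-negative cells. The Zscan4 run, chr7:10794241-11518688, held 6 of 6. On chr4:143394441-144364419, 6 of 7 PRAME-family rows were past 2-fold, with sums of 78.2 FPKM in Zscan4-positive cells, against 0.961 FPKM in Zscan4-negative cells. One of the 6, Pramel1, was not silent in negative cells, and the seventh row was Pramef8, at 8.36 FPKM in positive and 4.61 FPKM in negative cells. The run with Tcstv3 and AF067061 on chr13:119827961-120318261 held 5 of 5, at 206 FPKM in positive and 0.466 FPKM in negative cells. A pair of histone gene runs on chromosome 13 held 12 rows past 2-fold of 22 compared and 8 of 14, of which 1 and 2 were silent in negative cells. Gene families made by tandem duplication lie side by side and share sequence, so rows of a run are not independent observations.

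**Figure D3:**
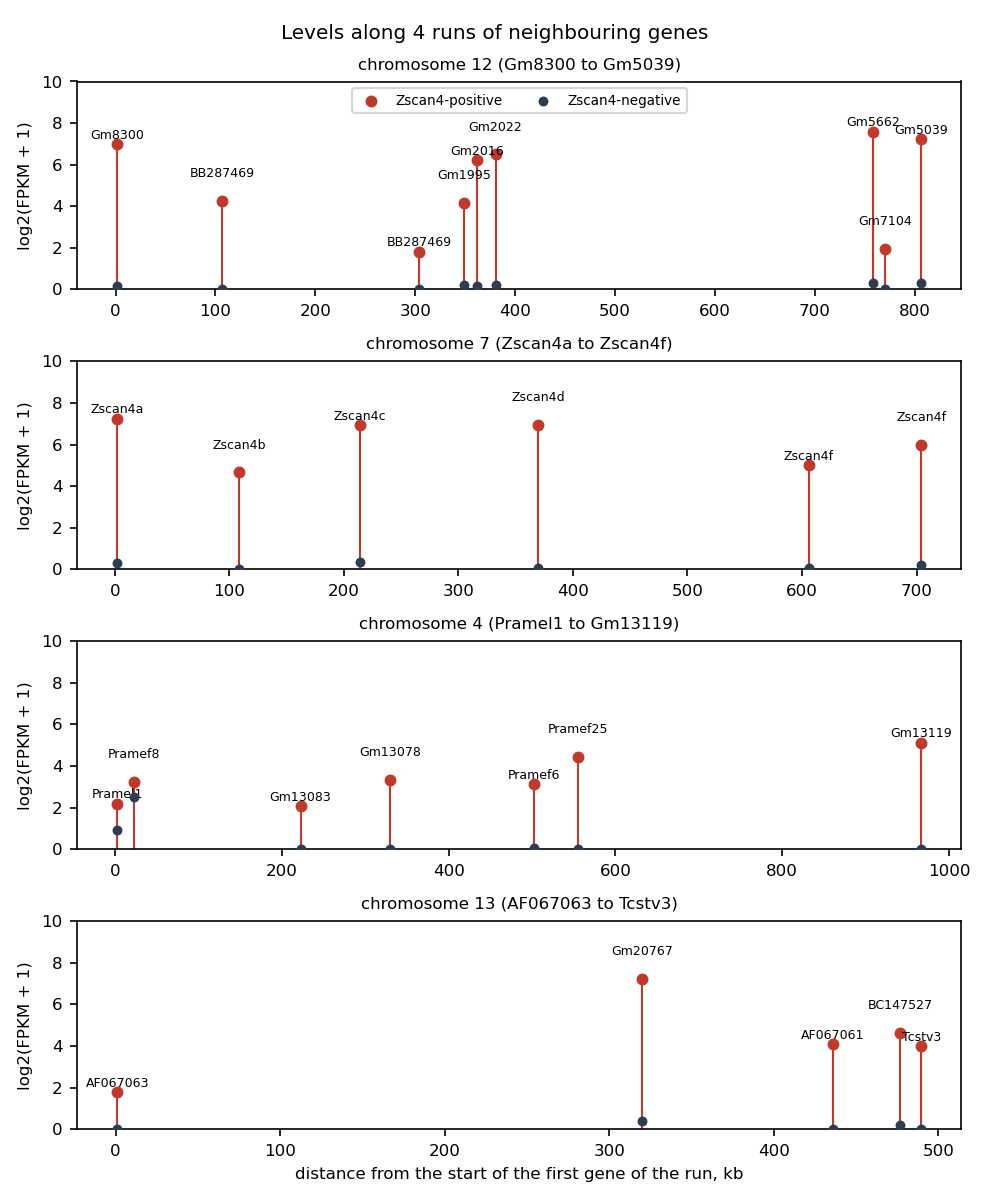
Levels as log2(FPKM + 1) of all compared rows along 4 runs of neighbouring genes, by distance from the start of the first gene in kb, with Zscan4-positive values in red and Zscan4-negative values in dark blue. Blue points of the rows past 2-fold lie near 0, except that of Pramel1, whose Zscan4-negative level is 0.924 FPKM, and Pramef8 has both values close together.

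A run on chromosome 19 had no silent row. On chr19:42123275-42431783, 4 of 5 compared rows were past 2-fold. Marveld1, which codes for a membrane protein with a MARVEL domain, was at 145 FPKM in Zscan4-positive cells, against 12.1 FPKM in Zscan4-negative cells. Its neighbour Avpi1, a vasopressin-induced gene, was at 177 FPKM in positive and 60.97 FPKM in negative cells. Sfrp5, a secreted inhibitor of WNT ligands, was at 4.30 FPKM in positive and 0.811 FPKM in negative cells, and Crtac1, a cartilage matrix gene, at 3.05 FPKM in positive and 0.733 FPKM in negative cells.

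Gene structure was read from GENCODE M21, using the longest transcript of each gene. The 153 silent-class genes had a median of 4 exons and 14 (9.15%) had a single exon. Genes below 0.5 FPKM in both fractions had a median of 5 exons and 9.76% with a single exon, while genes expressed in both and within 2-fold had a median of 9 exons and 1.57%. The silent-class genes were thus close in exon number to genes that neither fraction expressed.

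Among the 8412 rows expressed in both, 108 (1.28%) were past 2-fold higher in Zscan4-positive cells and 43 (0.511%) past 2-fold lower. Marveld1 had the largest difference, 3.47, an 11.9-fold ratio of levels. Fbxo15, an F-box gene known as a target of OCT4 and SOX2 in ES cells, was at 921 FPKM in Zscan4-positive cells, against 162 FPKM in Zscan4-negative cells, in a row that overlaps Timm21. Mreg, or melanoregulin, which acts in organelle transport, was at 478 FPKM in positive and 85.2 FPKM in negative cells. Fbxo15 and Mreg were thus abundant in Zscan4-negative cells and over 5-fold higher in Zscan4-positive cells.

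The next genes by size had varied roles. Nelfa, a subunit of the complex that pauses RNA polymerase II and a known activator of the 2-cell-like state, was at 257 FPKM in Zscan4-positive cells, against 60.4 FPKM in Zscan4-negative cells, a difference of 2.07. Cwc22, a splicing factor that recruits EIF4A3, was at 57.7 FPKM in positive and 13.2 FPKM in negative cells. Sord, or sorbitol dehydrogenase, was at 36.8 FPKM in positive and 6.98 FPKM in negative cells, Lonp2, a peroxisomal protease, at 71.8 FPKM in positive and 17.1 FPKM in negative cells, and Glrx2, a mitochondrial glutaredoxin, at 44.2 FPKM in positive and 10.1 FPKM in negative cells. The set of 12 was completed by Hist1h4i, a histone H4 gene, at 44.0 FPKM in positive and 6.66 FPKM in negative cells, Scamp1, a vesicle membrane protein gene, at 59.9 FPKM in positive and 12.7 FPKM in negative cells, Ccno, a cyclin gene, at 48.6 FPKM in positive and 10.99 FPKM in negative cells, and Igfbp3, an IGF-binding protein gene, at 40.1 FPKM in positive and 9.18 FPKM in negative cells. All 12 had a Zscan4-positive level above that of each of the other 4 fractions.

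The lower genes had smaller differences. Ctdsp2, a phosphatase of the RNA polymerase II C-terminal domain family, was at 69.8 FPKM in Zscan4-positive cells, against 343 FPKM in Zscan4-negative cells, a difference of -2.28. Its levels in double-negative, single-positive and double-positive cells, 231, 530 and 157 FPKM, also spread widely. Hes6, a basic helix-loop-helix gene, was at 13.1 and 45.8 FPKM in Zscan4-positive and Zscan4-negative cells, and Otx2, a homeobox factor of the formative epiblast, at 7.27 FPKM in positive and 20.5 FPKM in negative cells. Gbx2, a homeobox gene of the naive network, was at 18.0 FPKM in positive and 52.3 FPKM in negative cells, in a row that overlaps AK036422. Apela, a peptide ligand of the apelin receptor, was at 31.8 FPKM in positive and 81.5 FPKM in negative cells, and Enpp3, an ectoenzyme gene, at 19.2 FPKM in positive and 53.6 FPKM in negative cells. By the definition of the class, all of these transcripts were at 5 FPKM or more in Zscan4-positive cells.

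Among the lower genes were 3 noncoding transcripts of the imprinted Dlk1-Dio3 region, which are expressed from the maternal chromosome. Meg3 was at 53.7 FPKM in Zscan4-positive cells, against 155 FPKM in Zscan4-negative cells, Rian at 75.5 FPKM in positive and 196 FPKM in negative cells, and Mirg at 4.35 FPKM in positive and 14.5 FPKM in negative cells. In double-negative, single-positive and double-positive cells Meg3 was at 137, 79.1 and 85.7 FPKM, so its Zscan4-positive value was the lowest of the 5 fractions. Hdac5, a histone deacetylase gene, had another pattern. It was at 26.3 FPKM in Zscan4-positive cells, against 69.1 FPKM in Zscan4-negative cells, but at 23.6, 25.6 and 30.1 FPKM in the 3 fractions of the other line, so the Zscan4-negative value stood apart from the other 4. The remaining 3 of the 12 were Cnpy1, at 23.8 FPKM in positive and 76.03 FPKM in negative cells, 2810417H13Rik (Pclaf in RefSeq, a PCNA-binding factor), at 10.7 FPKM in positive and 30.9 FPKM in negative cells in a row that overlaps Trip4, and BC028528, at 5.02 FPKM in positive and 15.2 FPKM in negative cells in a row that overlaps Ciart.

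**Figure D4:**
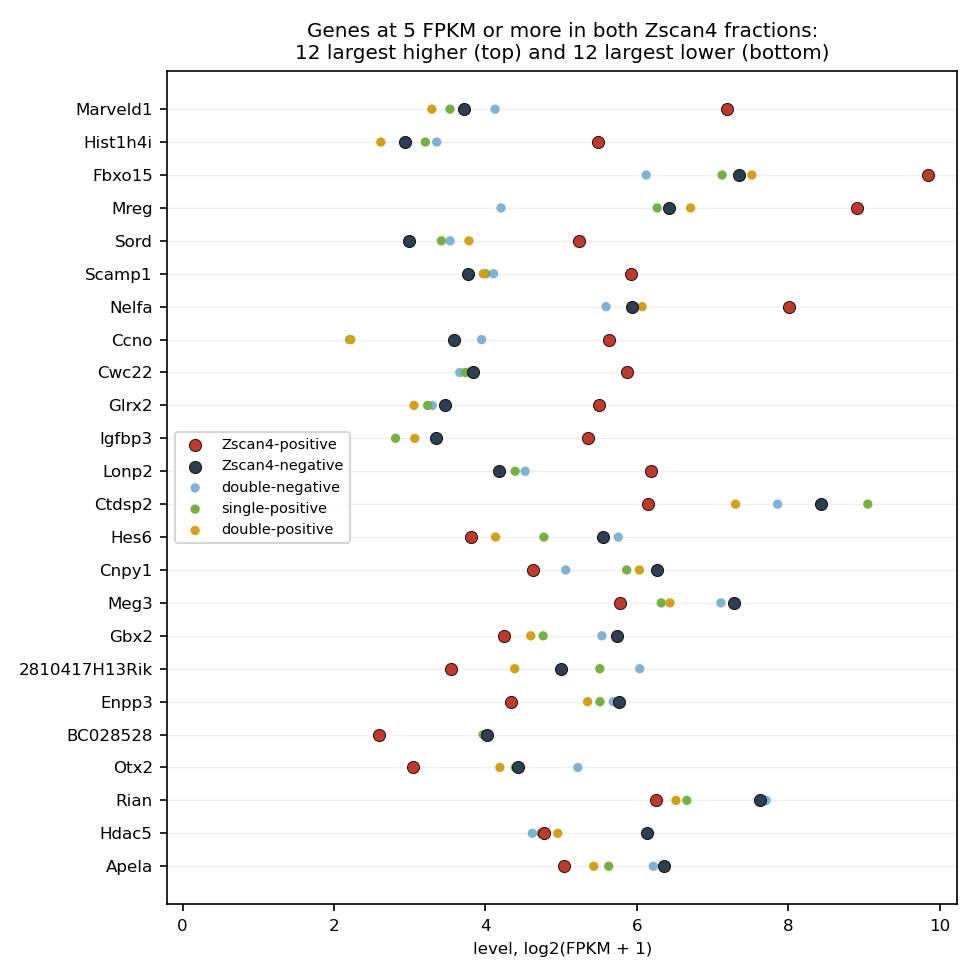
Levels as log2(FPKM + 1) of the 12 genes with the largest higher and the 12 with the largest lower differences among those at 5 FPKM or more in both Zscan4 fractions, 1 point per fraction. For the higher genes the Zscan4-positive point is right of all others, while for Hdac5 the Zscan4-negative point is the one that stands alone.

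Other genes were at 5 FPKM or more in Zscan4-negative cells and below that level in Zscan4-positive cells, and several with large differences of this kind are given here. Gbp2, an interferon-inducible guanylate-binding protein gene, was at 1.09 FPKM in Zscan4-positive cells, against 7.15 FPKM in Zscan4-negative cells. Zbp1, a sensor of Z-form nucleic acids, was at 0.889 FPKM in positive and 5.40 FPKM in negative cells, and Prtg, or protogenin, at 3.05 FPKM in positive and 11.1 FPKM in negative cells. Tagln, in a row that overlaps 4 others, was at 1.15 FPKM in positive and 5.24 FPKM in negative cells, Car3, a carbonic anhydrase gene, at 1.64 FPKM in positive and 6.52 FPKM in negative cells, 2610528J11Rik at 2.84 FPKM in positive and 9.33 FPKM in negative cells, and Mirg was another. In double-negative cells Gbp2 was at 29.2 FPKM and Zbp1 at 23.0 FPKM, above both Zscan4 fractions.

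The rows past 2-fold were compared with the fractions of the other line. Of 97 coding, long noncoding or transcribed-pseudogene rows expressed in both and higher, 89 had their highest level of the 5 fractions in Zscan4-positive cells, and in 57 it was at least 2-fold above each other fraction. Of all 8183 such rows expressed in both, 1857 (22.7%) had their highest level there. Of the 35 lower rows of these kinds, 24 had their lowest level in Zscan4-positive cells, 11 had a Zscan4-positive level within the range of the other line, and 15 had their highest level in Zscan4-negative cells. Over the 8183 rows these counts were 2222 (27.2%), 3362 (41.1%) and 1565 (19.1%). The rows were chosen by their order in the Zscan4 fractions, which fixes part of these counts, so they are given as a description.

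Genes that differ between the fractions of the Esrrb/Tbx3 line were met among both sets. Of the 108 higher rows, 17 (15.7%) were at least 2-fold higher and 5 lower in single-positive cells when set against double-negative cells, where 2.16% and 0.654% of all rows expressed in both Zscan4 fractions were. Of the same rows, 8 (7.41%) were at least 2-fold higher and 3 lower in double-positive than in single-positive cells, beside 0.273% and 1.11%. Of the 43 lower rows, 9 (20.9%) were lower and 4 higher in the first of these comparisons, and 7 (16.3%) were lower and 2 higher in the second. Mreg was higher in both comparisons, at 17.5, 76.1 and 104 FPKM in double-negative, single-positive and double-positive cells. Its differences were 2.06 and 0.44, so only the first was past 2-fold. Marveld1, at 16.5, 10.6 and 8.80 FPKM, ran the other way, with differences of -0.60 and -0.24, neither past 2-fold. The comparisons of the other line share the single-positive column, and the fractions of both lines differ in reporter as well as in state. Fibroblast markers also differed between the fractions of the other line, with Col1a1 at 477, 348 and 6.32 FPKM in double-negative, single-positive and double-positive cells. The part of fibroblast RNA in these counts was not tested.

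Lists of related genes were counted in the same way, against 3.79% of all compared rows higher and 0.96% lower, and 1.28% and 0.511% of rows expressed in both. In a list of 10 to 30 genes, a count of 0 or 1 is near that background and is not a result about the list. Of 10 compared activators of the 2-cell-like state, 3 were at least 2-fold higher and the median difference was 0.20. These were Nelfa, Tbx3, a T-box factor of the naive network, at 35.3 FPKM in Zscan4-positive cells, against 11.4 FPKM in Zscan4-negative cells, and Dppa2, a SAP-domain protein upstream of Dux, at 124 FPKM in positive and 48.6 FPKM in negative cells. Its partner gene Dppa4 was at 84.3 FPKM in positive and 111 FPKM in negative cells, and the maternal factor Dppa3 at 34.8 FPKM in positive and 30.3 FPKM in negative cells. The Dppa2 and Dppa4 levels thus stood in opposite order in the fractions.

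Of 30 compared repressors of the state, 1 (Zfp809) was at least 2-fold higher, none was lower, and the median was 0.04. Zfp809, a zinc finger protein that targets retroviral elements, was at 48.4 FPKM in Zscan4-positive cells, against 15.1 FPKM in Zscan4-negative cells. Trim28, the corepressor that such proteins recruit, was at 1222 FPKM in positive and 873 FPKM in negative cells. Chaf1b, a subunit of the chromatin assembly factor CAF-1, was at 53.7 FPKM in positive and 93.1 FPKM in negative cells, Kdm1a, the demethylase LSD1, at 117 FPKM in positive and 110 FPKM in negative cells, and Rif1, a replication timing factor, at 135 FPKM in positive and 89.3 FPKM in negative cells.

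Pluripotency genes were divided. Of 16 naive genes, 3 were at least 2-fold higher and 1 lower, with a median of 0.35. The higher ones were Fbxo15, Tbx3 and Nanog, a central homeobox factor, at 522 FPKM in Zscan4-positive cells, against 257 FPKM in Zscan4-negative cells. The Nanog difference was 1.02 and came to 0.97, under 2-fold, when the columns were scaled to equal totals. Of 14 core genes shared with primed cells, Dppa2 was higher and Otx2 lower, with a median of -0.13, and Pou5f1, which codes for OCT4, was at 2437 FPKM in positive and 2762 FPKM in negative cells. Of 15 formative and primed epiblast genes, none was 2-fold higher and 5 were lower, with a median of -0.77. Those were Pim2, a kinase gene, at 27.7 FPKM in positive and 66.0 FPKM in negative cells, Sall2 at 1.94 FPKM in positive and 5.79 FPKM in negative cells, the de novo DNA methyltransferase gene Dnmt3a at 16.0 FPKM in positive and 36.4 FPKM in negative cells, the WNT effector gene Lef1 at 7.07 FPKM in positive and 16.0 FPKM in negative cells, and Tcf15 at 46.1 FPKM in positive and 95.7 FPKM in negative cells. Sox3 and Zic2 of the same list had values in the other order, at 18.8 FPKM in positive and 9.51 FPKM in negative cells and at 51.0 FPKM in positive and 28.1 FPKM in negative cells.

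Germline genes that DNA methylation silences in other tissues had a median of 0.80. Of 12 compared, 4 were at least 2-fold higher and none lower. Dazl, an RNA-binding protein of germ cells, was at 13.2 FPKM in Zscan4-positive cells, against 4.07 FPKM in Zscan4-negative cells. Taf7l, a germ cell form of a general transcription factor subunit, was at 4.31 FPKM in positive and 1.01 FPKM in negative cells, Slc25a31, a testis ADP/ATP carrier, at 6.28 FPKM in positive and 1.77 FPKM in negative cells, and Tuba3a, a testis tubulin, at 22.04 FPKM in positive and 9.36 FPKM in negative cells. Beside them, 1 of 15 genes of the DNA methylation machinery, Dnmt3a, was past 2-fold and lower, with a median of -0.12. Of 10 genes of meiotic recombination only the cohesin gene Smc1b was past 2-fold, at 2.87 FPKM in positive and 0.931 FPKM in negative cells. Its difference came to 0.96 with equal totals. Of 6 compared genes of the oocyte and subcortical maternal complex none was past 2-fold in either direction.

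Telomere genes were followed because of the known tie of Zscan4 to telomeres. None of 21 compared was past 2-fold, with a median of -0.03. Tert, the telomerase reverse transcriptase, was at 4.42 FPKM in Zscan4-positive cells, against 5.31 FPKM in Zscan4-negative cells. Terf1, a shelterin subunit that binds telomeric DNA, was at 114 FPKM in positive and 115 FPKM in negative cells. Terc, the telomerase RNA, is not in the list and was named after its values were seen, at 22.8 FPKM in positive and 1.49 FPKM in negative cells.

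Signalling and stress lists had few members past 2-fold. The lists of LIF and STAT3, FGF and ERK, and NODAL response had none of 12, 11 and 8. The WNT list had Axin2, a feedback inhibitor, at 9.96 FPKM in Zscan4-positive cells, against 3.89 FPKM in Zscan4-negative cells, beside the lower Lef1, of 7 genes. The BMP list had Id3, an inhibitor of basic helix-loop-helix factors, at 73.0 FPKM in positive and 32.4 FPKM in negative cells, of 9. Of 14 genes of p53 response and apoptosis, Pmaip1, which codes for the death-promoting protein NOXA, was at 32.9 FPKM in positive and 8.999 FPKM in negative cells, and Plk2 at 36.1 FPKM in positive and 15.4 FPKM in negative cells. Of 13 genes of the integrated stress response, Ddit4, an inhibitor of mTORC1, was at 112 FPKM in positive and 41.7 FPKM in negative cells. None of 12 immediate early and stress genes was past 2-fold. Of 13 genes of interferon response and antigen presentation, Gbp2, Irf1 at 14.1 FPKM in positive and 30.4 FPKM in negative cells and the immunoproteasome gene Psmb8 at 1.91 FPKM in positive and 5.03 FPKM in negative cells were lower. Of 13 imprinted genes, Meg3 was lower and no other member was past 2-fold.

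Among housekeeping lists the counts were at the background given above. No member was past 2-fold in either direction among the 20 genes of Polycomb and chromatin remodelling, 12 of the MYC network, 14 of the nucleolus, 16 of translation initiation, 18 of DNA replication, 16 of mitosis, 14 of glycolysis and 14 of oxidative phosphorylation. Their medians ran between -0.10 in DNA replication and 0.18 in mitosis.

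**Figure D5:**
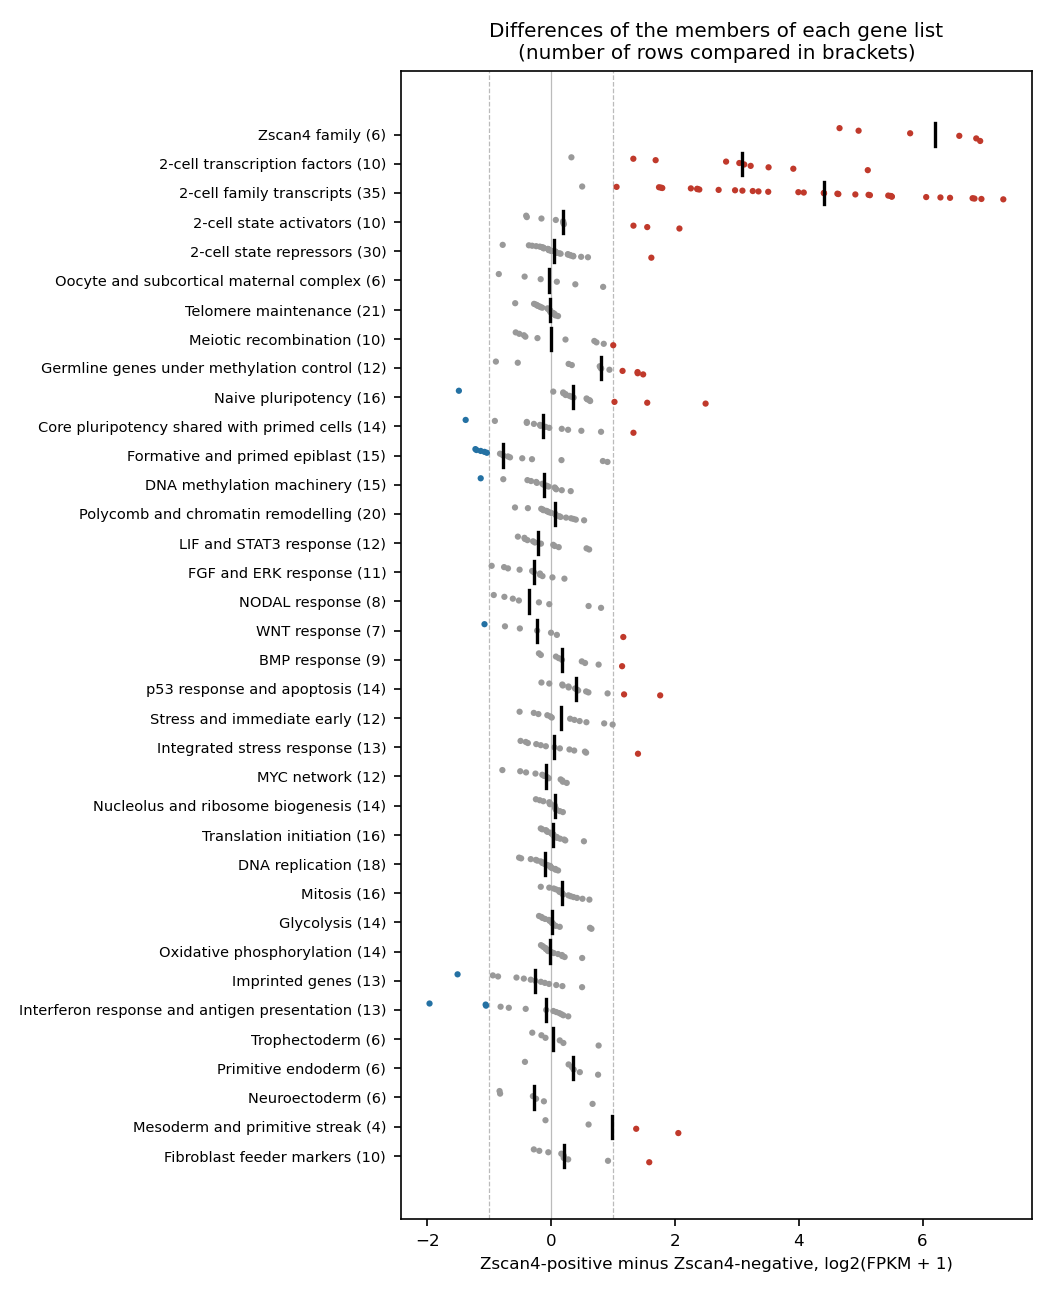
Difference of log2(FPKM + 1), Zscan4-positive minus Zscan4-negative, for every compared member of each gene list, with the number of rows in brackets, a black bar at the list median and dashed lines at 2-fold. Red points are at least 2-fold higher and blue points at least 2-fold lower, and the first 3 lists, whose rows mostly entered through positive cells alone, lie almost wholly right of the dashed line at 1.

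Markers of other cell types were followed in the same way. None of 6 compared trophectoderm markers, 6 primitive endoderm markers and 6 neuroectoderm markers was past 2-fold. Summed over each full list, trophectoderm markers came to 99.3 FPKM in Zscan4-positive cells, against 85.5 FPKM in Zscan4-negative cells, primitive endoderm markers to 122 FPKM in positive and 95.4 FPKM in negative cells, and neuroectoderm markers to 107 FPKM in positive and 85.3 FPKM in negative cells. The higher trophectoderm sum rests on Id2, also a member of the BMP list, with a difference of 0.77. Of the 6 compared trophectoderm markers, 3 had a difference above 0, and the list median was 0.02. The neuroectoderm sum rests on Tubb3, at 81.8 FPKM in positive and 51.1 FPKM in negative cells, while the other 5 compared members were lower in positive cells by less than 2-fold on the log2(FPKM + 1) scale and the list median was -0.27. Cdx2, which defines trophectoderm, was at 0.274 FPKM in positive and 0.380 FPKM in negative cells, and Gata6, which defines primitive endoderm, at 0.310 FPKM in positive and 0.251 FPKM in negative cells. Of 4 compared mesoderm and primitive streak markers, 2 were past 2-fold, and 2 reached 1 FPKM in positive cells alone. Snai1, a repressor of epithelial genes, was at 13.3 FPKM in positive and 2.44 FPKM in negative cells. Gsc, compared through positive cells alone, was at 2.57 FPKM in positive and 0.375 FPKM in negative cells. The higher list sum, 19.6 FPKM in positive against 7.10 FPKM in negative cells, rests largely on Snai1. All 4 members not compared had lower values in positive cells. Among them, T was at 0.291 FPKM in positive and 0.748 FPKM in negative cells. The mesoderm marker Mesp1 was at 0.127 FPKM in positive and 0.257 FPKM in negative cells. Fibroblast markers summed to 333 FPKM in Zscan4-positive cells, against 311 FPKM in Zscan4-negative cells, and of 10 compared, Thy1, a cell surface marker, was past 2-fold, at 8.37 FPKM in positive and 2.12 FPKM in negative cells. Lum, a fibroblast proteoglycan gene, was listed at 0 in both. The part of other cell types in Snai1, Gsc and Thy1 was not tested.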

How the data were processed

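Libraries came from the NEBNext Ultra RNA kit after RNeasy extraction, per the labels' protocols. Cuffdiff 2.2.1, Cufflinks, TopHat2 2.0.14 and bcl2fastq 1.8.4 were used with mm10, per the submitters' processing notes. The authors' deposited table is named for counts but gives FPKM, with 1 value for each row of a fraction. For the annotation and the library normalization, the sources used here give nothing. FPKM keeps no depth, and reads of near-identical copies may be divided among them.

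Genes at 1 FPKM or more in either fraction were compared on log2(FPKM + 1) with Python 3.11.15, pandas 2.3.3 and numpy 2.4.6, and figures used matplotlib 3.10.9. With 1 merged value per fraction no test could be run. Of 12400 compared rows, 11931 matched a RefSeq symbol or synonym (GRCm38.p6). Where 2 rows carry 1 symbol they were kept apart. Starts are written from 1.

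Named genes were, among coding and long noncoding symbols, the 20 largest differences in the silent class with at least 5 FPKM in Zscan4-positive cells, the 12 largest in each direction among those expressed in both, the 8 largest below 5 FPKM in Zscan4-positive and at least 5 FPKM in Zscan4-negative cells, up to 6 members past 2-fold per list, and the 4 sort markers. A gene that this rule picked is not reported here. Others (Abcb5, Gm8994, Lmx1a, Avpi1, Zscan4a, Zfp352, Ubtfl1, Obox6 and members of the runs) were picked with their values in view. Members and lists were chosen with earlier results of these data known. The steps were tested on simulated data. Alternatives covered pseudocount, low-value filter, scaling, summed rows, symbol kind and the class limits.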

Additional observations from a re-analysis of the deposited data

How the results depend on the processing

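Counts of rows past 2-fold moved with the pseudocount, the filter, the fold asked for, the class limits and the overlapping rows. Beside 470 higher and 119 lower rows, a pseudocount of 0.1 FPKM gave 740 and 228, and one of 5 FPKM gave 201 and 43, with 89 in place of 204 in the silent class and 25 in place of 43 lower rows expressed in both. Asking for 5 FPKM in either fraction gave 295 higher rows, 92 of them silent in Zscan4-negative cells. A 1.5-fold rule gave 1025 higher and 481 lower rows, with 347 and 220 among those expressed in both. A 4-fold rule gave 157 and 21, with 116 in the silent class and 16 higher and 1 lower expressed in both. With expressed set at 2 FPKM, 163 rows were higher, and at 10 FPKM 69, beside 108. Leaving out rows that overlap another compared row, chosen after seeing the data, left 78 lower rows. Equal totals gave 445 higher and 139 lower rows and median-ratio scaling 494 and 113. No named gene or list median with a 2-fold call changed sign under the settings tried. With a pseudocount of 5 FPKM, 20 of 82 named genes were no longer past 2-fold, and with equal totals 2, Nanog and Smc1b. No paired analysis was possible because each fraction has 1 merged value, and leaving out a replicate was not run for the same reason. Read depth limits low values by an unknown amount.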

Other observations

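The genes in these paragraphs were picked with their values in view. Clustered, replication-dependent histone genes, whose mRNAs mostly end in a stem-loop in place of a poly(A) tail, had 66 rows, of which 40 were compared and 21 of these were at least 2-fold higher in Zscan4-positive cells. The filter bears on this count, since 18 of the 40 reached 1 FPKM in positive cells alone. Of the 22 at 1 FPKM or more in Zscan4-negative cells, 13 were at least 2-fold higher and all 22 had a difference above 0. Over all compared rows 3.79% were at least 2-fold higher, and the share among all rows at 1 FPKM or more in Zscan4-negative cells was not counted. Levels were low, with a median of 1.06 FPKM over the 40 rows in Zscan4-negative cells. Rows of the histone gene runs on chromosome 13 are not independent observations. Of the 26 rows not compared, 15 had a difference above 0, 4 below 0 and 7 of 0. The 40 rows had sums of 236 FPKM in Zscan4-positive cells, against 70.5 FPKM in Zscan4-negative cells. Hist1h3c, a histone H3 gene, was at 29.7 FPKM in positive and 6.85 FPKM in negative cells. Of 10 other histone genes compared, none was past 2-fold, with a median of 0.02 and sums of 1257 FPKM in positive and 1096 FPKM in negative cells.

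Among structural RNAs, Terc, the RNA template of telomerase at chr3:96414437-96414833 (mm10), was at 22.8 FPKM in Zscan4-positive cells, against 1.49 FPKM in Zscan4-negative cells, a difference of 3.25, and at 1.90, 1.17 and 1.42 FPKM in double-negative, single-positive and double-positive cells. Rpph1, the RNase P RNA, was at 5.37 and 1.92 FPKM in Zscan4-positive and Zscan4-negative cells, and Rmrp, the RNase MRP RNA, at 8.77 FPKM in positive and 7.45 FPKM in negative cells. Of 25 snoRNA rows compared, 2 were at least 2-fold higher and 12 lower, beside 3.79% and 0.96% of all compared rows. Rows that reached 1 FPKM in 1 fraction alone were not counted apart, so nothing is read from these counts.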
